A study of Homo sapiens with 9 samples.

Results

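LGI4 and 5 genes beside it on chromosome 19, FXYD1, FXYD3, FXYD5, FXYD7 and HPN, were followed in RNA-seq libraries of Hep3B, an established human liver cancer cell line. The 6 genes were picked by symbol from 60683 listed genes. LGI4 was picked because of its values in these libraries, where it was high in hypoxia and low with the compound 32-134D, so its own values are given as a description without a test. The others were picked as its neighbors, and the question was whether they follow LGI4. There were 3 groups of 3 biological replicates, all harvested after 24 hours. One group was kept at 20% O2 with vehicle (DMSO), another at 1% O2 with vehicle, and the last at 1% O2 with 32-134D, an inhibitor of the hypoxia-inducible factors (HIFs). All 9 libraries come from 1 cell line, 32-134D was given at a single dose that the labels do not state, and no group received it at 20% O2.

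In cells short of oxygen, HIF-1 and HIF-2 accumulate and switch on genes near DNA sites whose core reads ACGTG or GCGTG. LGI4 encodes a secreted protein of the leucine-rich glioma-inactivated family that is best known in peripheral nerve, where it binds the receptor ADAM22 and is needed for Schwann cells to form myelin. The FXYD genes encode small proteins that cross the membrane a single time and tune the Na,K-ATPase, the pump that exchanges sodium for potassium. FXYD1 (phospholemman) is known from heart and muscle, FXYD3 from epithelia, FXYD5 (dysadherin) from tumors in which it weakens cell adhesion, and FXYD7 from brain. HPN encodes hepsin, a serine protease anchored in the membrane of hepatocytes.

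The 9 libraries held between 6013980 and 40549699 counts assigned to genes. Levels are given as CPM, the count of a gene divided by the size of its library, which the TMM method scales so that most genes stay level between libraries. Replicate 2 of vehicle at 20% O2 was the smallest library, and replicate 3 of 32-134D stood apart from the other libraries of its group, with a chi-square of 36.2 and 40.5 per degree of freedom against them, compared with 2.08 between those. Its summed level of 10 hepatocyte marker genes was also the lowest, and results that rest on either library are given with and without it. The hepatocyte markers, 10 of 10 of them tested, summed to between 18727 and 20136 CPM in vehicle at 20% O2, between 13713 and 17080 CPM in vehicle at 1% O2 and between 11912 and 18451 CPM with 32-134D. These sums are weighted to the most abundant markers, and by gene 8 of the 10 were not called in hypoxia (median log2 fold change -0.07). The 2 called were lower, APOB (-3.47) and AFP (-0.69), where 20.3% of all tested genes were called lower. With 32-134D 1 marker was called higher and 3 lower, beside 16.2% and 13.7% of all tested genes. Of 10 markers of Schwann, endothelial, stromal and immune cells, S100B and CD3E had 0 counts in every library and 4 had enough counts to be tested. The 10 summed to between 35.2 and 38.6 CPM at 20% O2, between 14.6 and 15.8 CPM in vehicle at 1% O2 and between 30.6 and 34.0 CPM with 32-134D, so they were lowest in the group in which LGI4 was highest. SOX10, which defines Schwann cells, had 1 count in the 9 libraries.

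The genes lie close together in GRCh38. In order along chromosome 19 they are HPN (35040506 to 35066571, plus strand), FXYD3 (35115879 to 35124324, plus strand), LGI4 (35124513 to 35142451, minus strand), FXYD1 (35138808 to 35143109, plus strand), FXYD7 (35143250 to 35154301, plus strand) and FXYD5 (35154730 to 35169883, plus strand). LGI4 is thus the only one of the 6 on the minus strand. FXYD3 ends 189 bp from the low end of LGI4, and FXYD7 starts 799 bp beyond its high end. FXYD5 starts 12279 bp beyond it, and HPN ends 57942 bp before it. FXYD1 overlaps the LGI4 gene by 3644 bp on the opposite strand, but no exonic base of LGI4 is shared with FXYD1 or any other annotated gene. The strand setting used in counting is not given in the sources used here. Whether RNA of LGI4 from outside its annotated exons was counted to FXYD1 or FXYD3 was not tested. Exons of FXYD3 and FXYD1 are shared in part with unnamed transcripts, and 65 bp of those of FXYD3 with the microRNA gene MIR6887, leaving 59.3% of the exonic bases of FXYD3 and 53.4% of those of FXYD1 to the gene alone. Of the unnamed transcripts, AC020907.6 and AC020907.2 had 0 counts in every library and AC020907.5 had 2 in all, so almost no counts were assigned to them.

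The sequences around the start sites that RefSeq gives are shown because they place the searched HIF core letters at those starts, from 250 bases before to 50 after. They come from RefSeq (GRCh38.p14), which held windows for 5 of the 6 genes, and read 5′ to 3′ along the gene's strand. Capitals mark ACGTG or GCGTG on either strand, so that CACGC marks GCGTG on the other strand and CACGTG holds ACGTG on both. The windows are LGI4 chr19:35135010-35135309 (minus strand), FXYD3 chr19:35117750-35118049, FXYD1 chr19:35138885-35139184 (the one of 3 FXYD1 windows with most matches), FXYD5 chr19:35154485-35154784 and HPN chr19:35041471-35041770 (all plus strand). These starts are not always the outer ends of the genes given above. The RefSeq start lies 7392 bp inside the LGI4 gene, 2121 bp inside FXYD3, 1215 bp inside HPN, 327 bp inside FXYD1 for the window shown and 5 bp inside FXYD5.
LGI4: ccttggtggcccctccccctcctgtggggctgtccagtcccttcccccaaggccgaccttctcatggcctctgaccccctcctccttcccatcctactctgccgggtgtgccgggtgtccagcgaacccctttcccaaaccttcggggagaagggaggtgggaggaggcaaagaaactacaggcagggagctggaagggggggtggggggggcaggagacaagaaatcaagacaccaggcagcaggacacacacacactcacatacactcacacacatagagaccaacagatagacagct
FXYD3: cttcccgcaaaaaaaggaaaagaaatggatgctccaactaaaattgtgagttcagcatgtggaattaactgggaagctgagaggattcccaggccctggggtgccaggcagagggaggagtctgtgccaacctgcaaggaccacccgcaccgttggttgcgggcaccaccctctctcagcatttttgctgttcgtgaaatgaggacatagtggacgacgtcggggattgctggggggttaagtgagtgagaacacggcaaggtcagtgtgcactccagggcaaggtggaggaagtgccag
FXYD1: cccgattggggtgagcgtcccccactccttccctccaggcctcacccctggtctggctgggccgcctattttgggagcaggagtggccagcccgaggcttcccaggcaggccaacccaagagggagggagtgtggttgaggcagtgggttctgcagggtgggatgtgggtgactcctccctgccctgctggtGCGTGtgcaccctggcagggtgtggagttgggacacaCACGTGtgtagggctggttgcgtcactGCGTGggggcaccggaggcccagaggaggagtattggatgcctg
FXYD5: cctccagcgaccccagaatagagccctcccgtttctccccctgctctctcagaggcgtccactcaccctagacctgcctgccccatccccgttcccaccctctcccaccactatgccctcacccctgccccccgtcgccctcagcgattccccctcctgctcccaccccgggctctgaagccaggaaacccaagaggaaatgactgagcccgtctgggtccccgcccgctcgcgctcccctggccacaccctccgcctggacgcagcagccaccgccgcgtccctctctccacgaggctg
HPN: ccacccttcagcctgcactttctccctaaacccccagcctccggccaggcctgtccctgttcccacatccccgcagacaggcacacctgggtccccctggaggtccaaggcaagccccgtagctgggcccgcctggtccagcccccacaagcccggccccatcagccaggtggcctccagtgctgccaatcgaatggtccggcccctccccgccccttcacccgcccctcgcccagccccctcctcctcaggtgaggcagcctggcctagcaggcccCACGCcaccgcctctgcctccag

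The LGI4, FXYD3 and FXYD5 windows held neither word, and the outer ends of LGI4 and FXYD3 were not searched. The FXYD1 window held 4 matches, a GCGTG 58 bases before the start and another at base 7 after it, and an ACGTG on each strand from 21 and 20 bases before the start, which are the same letters read both ways. The other FXYD1 windows held 0 and 1 match, and the HPN window 1 GCGTG. Of 35116 such windows in the table, 48.4% held at least 1 of the words, with ACGTG in 21.4% and GCGTG in 36.5%. A match is a run of letters, not a measured site.

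Exposure to 1% O2 was accompanied by higher RNA from LGI4 and from FXYD3, FXYD1 and FXYD5, whereas HPN differed little. A gene was called where the edgeR false discovery rate (FDR), taken over all 22672 tested genes, was below 0.05 and the fold change above 1.5. Of the 5 neighbors, FXYD1 and FXYD5 were called higher and HPN was not called, while FXYD7 had too few counts to be tested. FXYD3 also passed the thresholds, but it met the minimum of 10 counts for testing only through vehicle at 1% O2, since the other 6 libraries held 5 counts, so it had to differ and its values are given as a description. Over all tested genes 19.5% were called higher and 20.3% lower. These are bulk libraries, in which more RNA per cell and more cells with the RNA cannot be told apart.

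**Figure D1:**
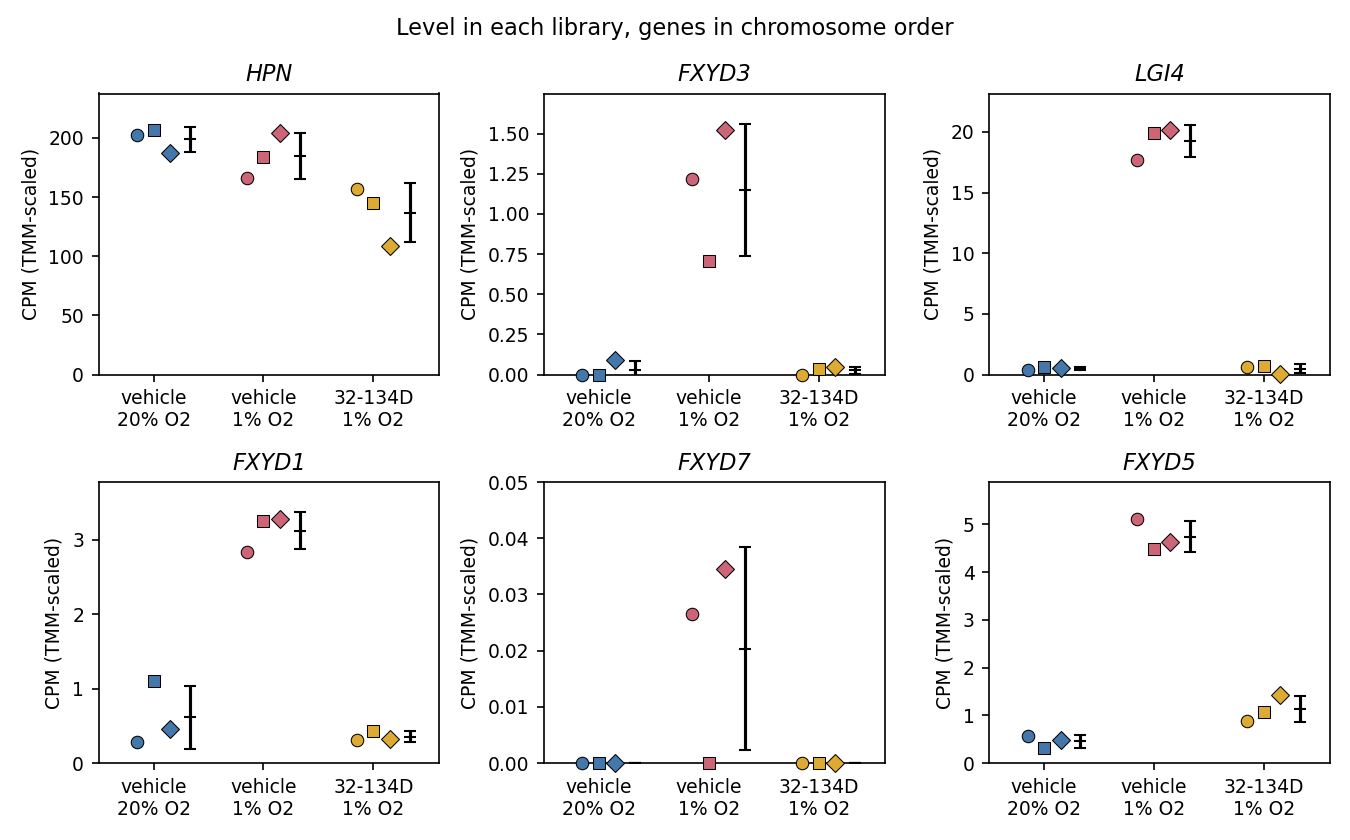
Level of each of the 6 genes in each library, in TMM-scaled CPM on a linear axis with its own range per gene. Circles, squares and diamonds are replicates 1, 2 and 3, and black bars give the mean ± SD of 3. LGI4, FXYD3, FXYD1 and FXYD5 are high in the 3 vehicle libraries at 1% O2, HPN lies between 109 and 206 CPM throughout, and FXYD7 has single counts in 2 libraries.

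LGI4 measured 0.359, 0.628 and 0.548 CPM in the 3 libraries of vehicle at 20% O2 and 17.7, 19.9 and 20.2 CPM in those of vehicle at 1% O2. Behind these stood 27 counts in the first group and 1673 in the second. Every vehicle library at 1% O2 was far above every library at 20% O2, by a log2 fold change of 5.24 (95% interval 4.50 to 5.98).

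FXYD3, which ends just before the low edge of the LGI4 gene, went from 0, 0 and 3 counts at 20% O2 to 46, 15 and 44 counts in vehicle at 1% O2. Its 3 hypoxic libraries, at 1.22, 0.707 and 1.52 CPM, lay above the others without overlap. Since the low group held 3 counts in all, the change is given as the ratio of pooled counts, 21.2-fold with a 95% counting interval of 7.05 to 104. Intervals on counts cover counting error only.

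FXYD1, whose gene body overlaps that of LGI4, measured 0.287, 1.10 and 0.456 CPM at 20% O2 and 2.84, 3.25 and 3.28 CPM in vehicle at 1% O2. The groups did not overlap, although replicate 2 at 20% O2, with 7 counts, was the highest of its group. The log2 fold change was 2.62 (standard error, SE, 0.32, FDR 6.48e-06 from edgeR), and it was 2.95 without that library.

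FXYD5, the farthest of the FXYD genes from LGI4, measured 0.574, 0.314 and 0.487 CPM at 20% O2 and 5.12, 4.48 and 4.63 CPM in vehicle at 1% O2. Its log2 fold change of 3.28 (SE 0.26, FDR 7.5e-08 from edgeR) lay between those of FXYD1 and LGI4. Within each group its libraries were close together, and no library of one group reached the other.

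FXYD7, the neuronal member that lies between FXYD1 and FXYD5, had 1, 0 and 1 counts in vehicle at 1% O2 and 0 counts in the other 6 libraries. With 50478487 counts in all at 20% O2, a count of 0 allows a level of up to 0.0564 CPM by a floor of 3 counts, and in the 32-134D libraries up to 0.0346 CPM. FXYD7 RNA was therefore not detectable above these limits at 20% O2 or with 32-134D, and no change was testable, although it sits between genes that rose.

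HPN measured 203, 206 and 187 CPM at 20% O2 and 166, 184 and 204 CPM in vehicle at 1% O2. The ranges of the groups overlapped, and the log2 fold change of -0.11 (95% interval -0.35 to 0.14, FDR 0.469 from edgeR) has an upper bound far under the log2 fold changes of the FXYD genes. Scaling by total counts alone gave -0.32 (FDR 0.0253), still under the fold threshold. HPN carried far more counts than the other members, between 1315 and 6257 per library, so the interval is narrow.

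Addition of 32-134D at 1% O2 was accompanied by lower RNA from the same 3 FXYD genes and from LGI4. All comparisons with vehicle at 1% O2 use the same 3 libraries, so a fall here and a rise above are not independent of each other. Of the 5 neighbors, FXYD1 and FXYD5 were called lower, and FXYD3 passed the thresholds under the same limit as above, where 13.7% of all tested genes were called lower and 16.2% higher.

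LGI4 measured 0.652, 0.741 and 0.0457 CPM with 32-134D, from 23, 22 and 1 counts. All 3 were below every vehicle library at 1% O2, with a log2 fold change of -5.19 (95% interval -5.85 to -4.54). The library with 1 count was replicate 3, the one that stood apart, and leaving it out gave -4.78.

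FXYD3 had 0, 1 and 1 counts with 32-134D. The pooled level was 51.9-fold lower than in vehicle at 1% O2, with a 95% counting interval of 14.0 to 434. No 32-134D library came near the lowest vehicle library at 1% O2.

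FXYD1 measured 0.312, 0.438 and 0.320 CPM with 32-134D, a log2 fold change of -3.11 (SE 0.30, FDR 9.47e-07 from edgeR). FXYD5 measured 0.879, 1.08 and 1.42 CPM, a log2 fold change of -2.10 (SE 0.21, FDR 1.2e-06 from edgeR). For both genes the groups were separate, and for FXYD5 replicate 3 was the highest of its group, unlike for LGI4, where it was the lowest. Without that replicate the log2 fold changes were -3.05 for FXYD1 and -2.29 for FXYD5, both still called.

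HPN measured 157, 145 and 109 CPM with 32-134D, all below the lowest vehicle library at 1% O2. The log2 fold change of -0.43 (SE 0.12, FDR 0.0063 from edgeR) was a 1.35-fold lower level, under the fold threshold, so that HPN was not called. Replicate 3 was lowest, and without it the log2 fold change was -0.29 (FDR 0.00316). With scaling by total counts it was -0.24 (FDR 0.0931). The hepatocyte markers in that library were also low, as given above, and their part in this difference was not tested.

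The 32-134D libraries at 1% O2 were then set beside vehicle at 20% O2, which asks how far each gene was from its level at high oxygen. Over all tested genes 3.0% were called higher and 0.516% lower in this comparison, and of the 5 neighbors 1 was called, FXYD5. LGI4 differed by a log2 fold change of 0.04 (95% interval -1.02 to 1.11), or 0.45 without replicate 3 of 32-134D. FXYD1 differed by -0.49 (95% interval -1.37 to 0.39, FDR 0.519 from edgeR). FXYD3, with 2 and 3 pooled counts, had a ratio of 0.408 with a 95% counting interval of 0.0341 to 3.57, so that neither a large rise nor a large fall could be told from none at this depth.

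FXYD5 stayed above its level at 20% O2, since its lowest 32-134D library, at 0.879 CPM, exceeded the highest library at 20% O2, at 0.574 CPM. The log2 fold change was 1.17 (SE 0.30, FDR 0.0227 from edgeR). This call rests on few counts, 26 at 20% O2, and was lost without replicate 2 of vehicle at 20% O2 (1.09, FDR 0.0617) or without replicate 3 of that group (1.17, FDR 0.119). Without replicate 3 of 32-134D it was 0.99 (FDR 0.0498). HPN had a log2 fold change of -0.53 (SE 0.12, FDR 0.00885), under the fold threshold, with every library of 32-134D below every library at 20% O2. Without replicate 3 of 32-134D the log2 fold change of HPN was -0.40 (FDR 0.00107).

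The members differed widely in level when exonic length was taken into account. In vehicle at 1% O2, in CPM per kb of exon, HPN stood at 54.6 ± 5.69, LGI4 at 4.25 ± 0.297, FXYD1 at 1.62 ± 0.130, FXYD5 at 1.58 ± 0.111, FXYD3 at 0.345 ± 0.123 and FXYD7 at 0.0113 ± 0.0101 (SD, n = 3). FXYD1 and FXYD5 were neighbors in this order that did not differ beyond their spread. Their order depends on the length used, since per kb of exon shared with no other gene FXYD1 came to 3.04 ± 0.243. At 20% O2 LGI4 itself stood at 0.113 ± 0.0305 CPM per kb, within the spread of FXYD5 at 0.153 ± 0.0442.

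The protein-coding genes within 150 kb of LGI4 were examined next. GRAMD1A, which encodes a protein that moves cholesterol between membranes, lies 98 kb before LGI4 and measured 99.0, 109 and 103 CPM at 20% O2, 146, 167 and 164 CPM in vehicle at 1% O2 and 106, 105 and 109 CPM with 32-134D. It was called higher in hypoxia, by 0.62 on the log2 scale (edgeR, FDR 4.13e-06), and its -0.57 with 32-134D (FDR 1.32e-05) was just under the fold threshold. The call in hypoxia was close to that threshold too and was lost with the 3 other scalings run in edgeR, at 0.41 with total counts, 0.43 with the upper quartile and 0.57 with median ratios. Its libraries in vehicle at 1% O2 lay above the other 6.

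LSR, which encodes a lipoprotein receptor of liver that is also part of tricellular junctions, lies 106 kb beyond LGI4. It measured 252, 253 and 249 CPM at 20% O2, 584, 692 and 719 CPM in vehicle at 1% O2 and 262, 270 and 281 CPM with 32-134D. The log2 fold changes were 1.40 (FDR 2.33e-09 from edgeR) in hypoxia and -1.30 (FDR 1.45e-08) with 32-134D, and both were called. LSR thus moved in the same directions as LGI4, by less on the log2 scale.

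USF2, a transcription factor gene beyond LSR, was called in neither of these comparisons, with log2 fold changes of 0.50 (FDR 3.61e-05 from edgeR) in hypoxia and -0.48 (FDR 6.42e-05) with 32-134D. HAMP, which encodes the iron hormone hepcidin, had 18 counts in all 9 libraries, too few to tell a change of its size from none. HPN thus was not called higher with LGI4 in hypoxia, whereas LSR, which lies farther from it, was, under each of the 4 scalings run in edgeR.

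**Figure D2:**
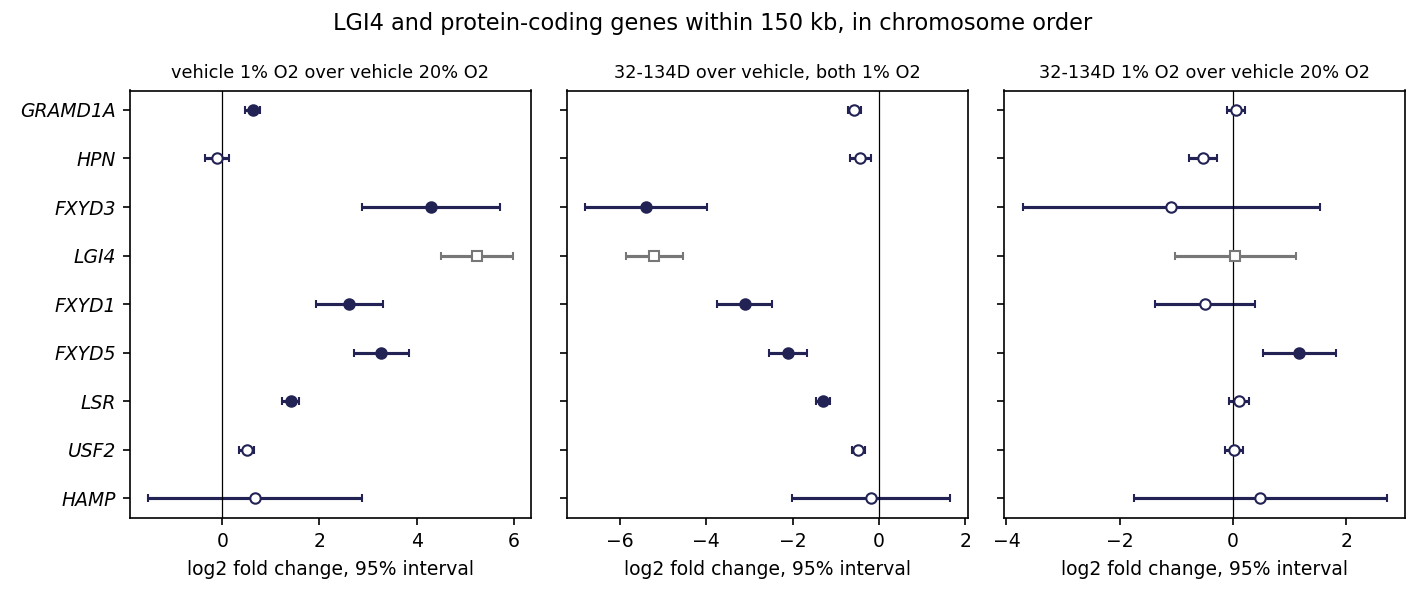
Log2 fold change with its 95% interval for LGI4 and 8 tested protein-coding genes within 150 kb of it, in chromosome order, in 3 comparisons. Filled circles passed FDR below 0.05 and a fold change above 1.5, open circles did not, and the gray square is LGI4, shown without a test. FXYD3, FXYD1, FXYD5 and LSR are filled on the right of 0 in hypoxia and on its left with 32-134D, while HPN lies near 0 in hypoxia. FXYD3 met the count minimum only through vehicle at 1% O2, so its filled circles are a description.

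In a window of 500 kb to either side of LGI4, 34 of 74 genes other than LGI4 were tested. In hypoxia 9 (26.5%) were called higher and 5 (14.7%) lower, beside the 19.5% and 20.3% of all tested genes. The median log2 fold change of the 34 was 0.43, and that of all tested genes was 0.001. Without the 4 tested members the window held 30 tested genes, of which 6 (20.0%) were higher and 5 (16.7%) lower, shares near those of all genes. The median log2 fold change of these 30 was 0.40, still above that of all tested genes. FXYD3 and ATP4A, both among the 9, met the count minimum only through vehicle at 1% O2, and ATP4A is also among the 6.

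With 32-134D, 9 of the 34 (26.5%) were called lower and 4 (11.8%) higher, beside 13.7% and 16.2% of all tested genes, and their median log2 fold change was -0.45 beside -0.01 over all tested genes. Without the members it was 6 of 30 (20.0%) lower and 4 (13.3%) higher, with a median log2 fold change of -0.37. FXYD3 and ATP4A, both among the 9, had to be lower here by the same limit on counts, and ATP4A is also among the 6. Against vehicle at 20% O2, FXYD5 was the 1 gene called in the window. Scaling by total counts moved the median of all genes by -0.21 in hypoxia and by 0.18 with 32-134D, and the window then held 6 higher and 5 lower, and 5 higher and 6 lower. Over all genes, 34.5% of those called in hypoxia were then higher in place of 49.0%, and 72.0% in place of 54.2% with 32-134D.

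**Figure D3:**
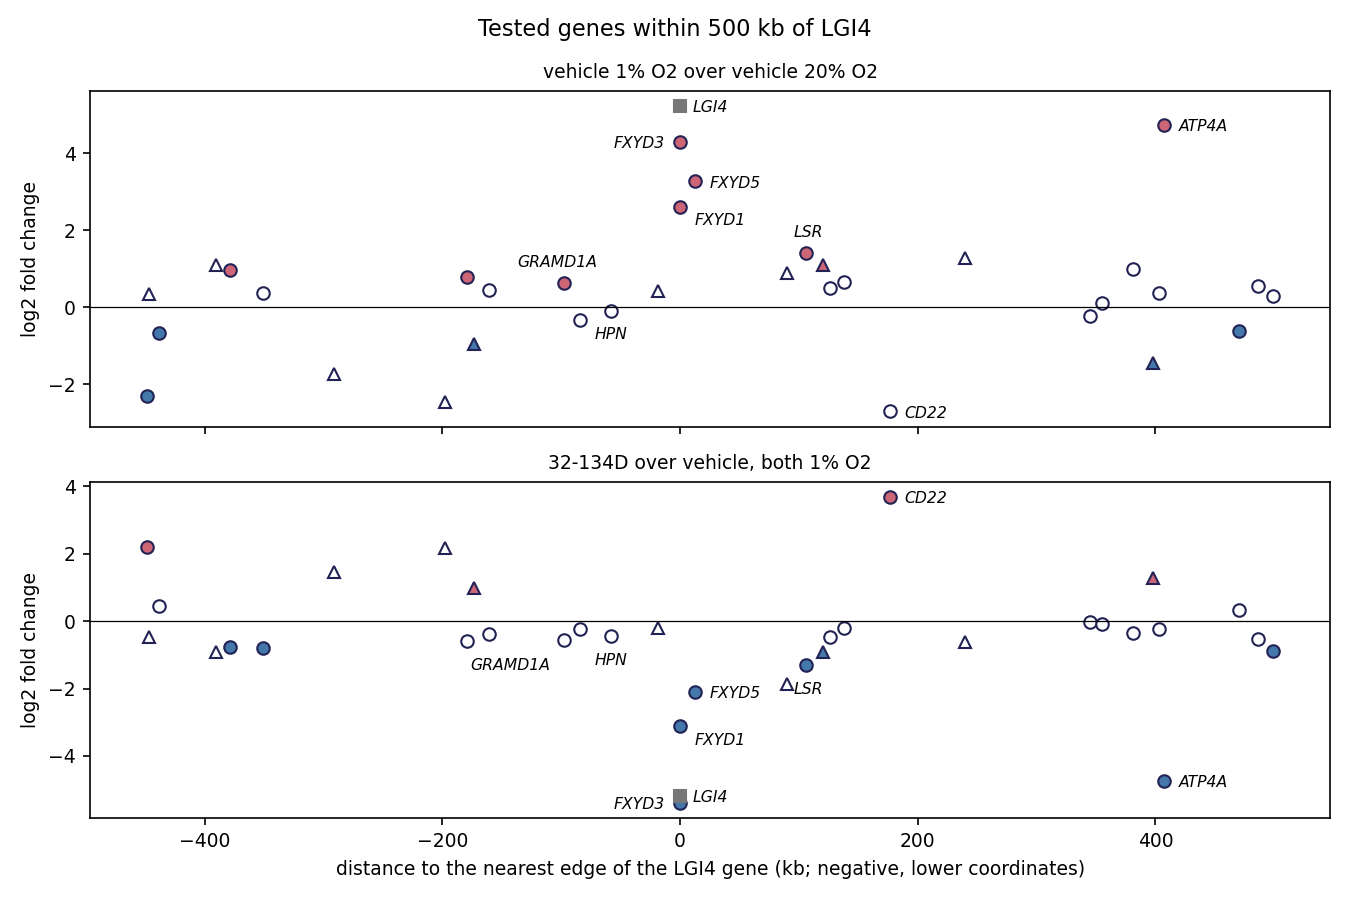
Log2 fold change of the 34 tested genes within 500 kb of LGI4 against their distance from its nearest edge, in hypoxia (top) and with 32-134D (bottom). Circles are protein-coding genes, triangles other genes, red called higher, blue called lower, white not called, and the gray square LGI4. FXYD3, FXYD5 and FXYD1 stand apart from most of the window near distance 0, whereas HPN lies near the zero line. FXYD3 and ATP4A met the count minimum only through vehicle at 1% O2, so their colors are a description.

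The members aside, the genes of the window with the largest called changes had few counts. ATP4A, the catalytic subunit of the gastric proton pump, had 5, 5 and 1 counts in vehicle at 1% O2 and 0 in the other 6 libraries, so that it entered the test only through the group in which it was high, and no test is given. SCGB2B2, a secretoglobin gene, fell in hypoxia by 2.30 on the log2 scale (FDR 0.0223) and was higher by 2.21 with 32-134D (FDR 0.022), from 36 counts in all. CD22, a B cell surface receptor, had 5, 6 and 28 counts with 32-134D against 2, 1 and 0 in vehicle at 1% O2, so most of the counts behind its call (FDR 0.00745) were in replicate 3. TMEM147-AS1, an antisense transcript with 1100 counts in all, went the other way from LGI4, at -1.44 in hypoxia (FDR 2.06e-06) and 1.28 with 32-134D (FDR 7.68e-06).

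Across the 9 libraries, the profile of LGI4 was compared with those of 13199 genes with a mean of at least 50 counts in some group, by the distance between log2 CPM values set to 0 at the mean of vehicle at 20% O2. These points share libraries and depth, so the ranking is a description. The nearest 5 were GHRHR, the receptor for growth hormone-releasing hormone (distance 2.38), NPPB, the precursor of B-type natriuretic peptide (2.88), PPP1R3G, a subunit that directs a phosphatase to glycogen (3.15), CA9, carbonic anhydrase 9, a well-known HIF target (3.47), and NDRG1, a gene long used as a hypoxia marker (3.49). None lies on chromosome 19. Mean levels of GHRHR were 0.141 CPM at 20% O2, 3.55 CPM in vehicle at 1% O2 and 0.198 CPM with 32-134D (n = 3). Those of CA9 were 27.9, 579.9 and 56.6 CPM in the same order.

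Among the neighbors, FXYD5 ranked 75 and FXYD1 ranked 77 by this distance, and HPN ranked 7718. FXYD3 and FXYD7 were under the count minimum and were not ranked. GHRHR and NPPB shared with LGI4 a low value in replicate 3 of 32-134D, which FXYD1 and FXYD5 did not. For LGI4 this value was 1 count, under the floor of 3 counts.

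**Figure D4:**
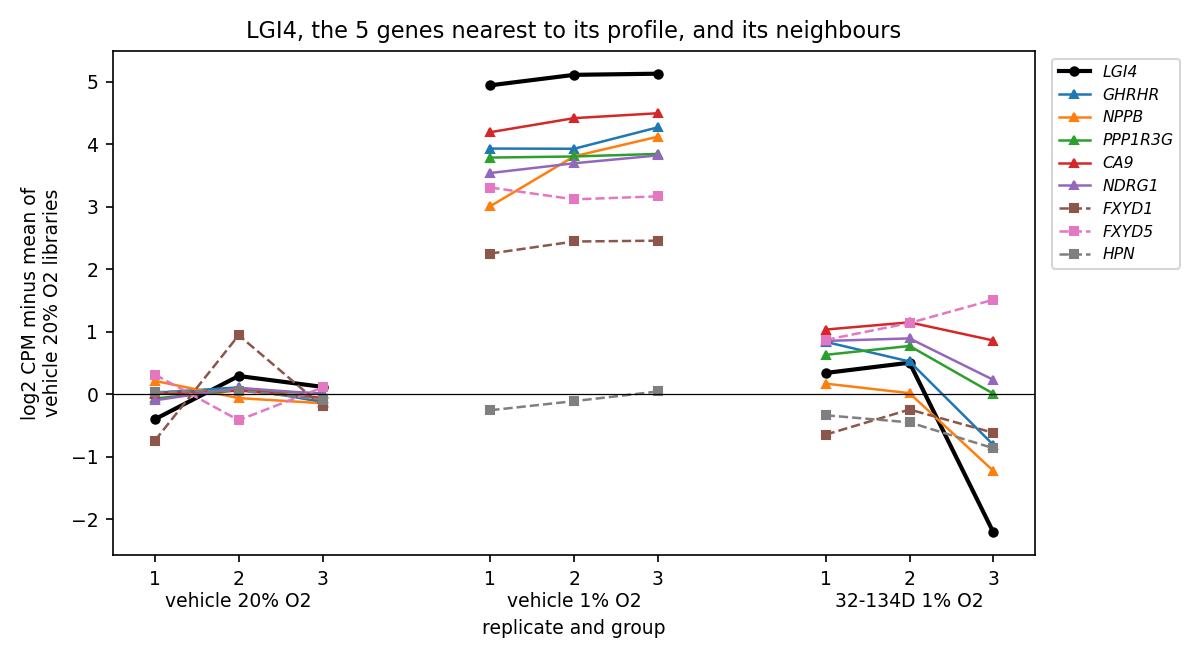
Log2 CPM (prior count 2) in each library minus the gene's mean in vehicle at 20% O2, for LGI4 (black), the 5 nearest genes (triangles) and 3 neighbors (dashed). Lines join libraries of 1 group only to guide the eye. LGI4 is the highest in the 3 vehicle libraries at 1% O2 and the lowest in replicate 3 of 32-134D, and HPN stays within about 1 unit of 0.

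Relatives and partners of these proteins elsewhere in the genome were read from lists of genes other than the 6. FXYD2, the gamma subunit of the pump in kidney and the other FXYD gene with appreciable counts, lies apart from this cluster. It measured 15.5, 13.2 and 13.5 CPM at 20% O2, 12.2, 16.0 and 15.2 CPM in vehicle at 1% O2 and 10.3, 10.0 and 1.33 CPM with 32-134D. Its log2 fold change in hypoxia was 0.03 (FDR 0.958 from edgeR), and with 32-134D it was -0.96 (FDR 0.0608), with the low value again in replicate 3. FXYD4 and FXYD6 were not tested for lack of counts.

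In the list of other LGI genes and the ADAM receptors they bind, 6 of 6 were tested. In hypoxia 2 of the 6 were called, both lower (median -1.55), where 20.3% of all tested genes were lower. With 32-134D 2 were higher and 1 lower (median 1.23), where the shares of all tested genes were 16.2% and 13.7%. Both medians rest in part on genes with few counts that were not called. ADAM23 had 7 counts at 20% O2, 4 in vehicle at 1% O2 and 12 with 32-134D, and LGI1 had 4, 1 and 10. ADAM22, the receptor for LGI4, measured 34.2, 42.2 and 45.5 CPM at 20% O2, 9.83, 10.4 and 9.85 CPM in vehicle at 1% O2 and 35.9, 36.7 and 24.9 CPM with 32-134D. It fell by 2.02 on the log2 scale in hypoxia (FDR 2.75e-08 from edgeR) and rose by 1.70 with 32-134D (FDR 2.97e-07). The vehicle libraries at 1% O2 thus held the least RNA for the receptor and the most for the ligand, which was picked for being high there. ADAM11, a related protein without protease activity, fell by 1.57 (FDR 1.83e-05) and rose by 0.91 (FDR 0.0022). LGI3 fell with 32-134D by 1.79 (FDR 0.0224), from 33 to 9 counts over 3 libraries, and was not called in hypoxia (0.87, FDR 0.239).

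In the list of hepsin's substrates, inhibitors and related proteases, 10 of 13 were tested, and 3 were called in hypoxia, all of them lower (median -0.40), beside the same 20.3%. With 32-134D 3 were higher and 1 lower (median 0.11), beside 16.2% and 13.7% of all tested genes. TMPRSS6, the liver protease that restrains hepcidin, measured 68.2, 70.2 and 69.6 CPM at 20% O2, 11.5, 16.4 and 16.2 CPM in vehicle at 1% O2 and 50.3, 49.1 and 15.7 CPM with 32-134D. It fell by 2.25 on the log2 scale in hypoxia (FDR 1.62e-05 from edgeR) and rose by 1.41 with 32-134D (FDR 0.00116), although replicate 3 of 32-134D overlapped the vehicle libraries at 1% O2.

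TMPRSS2, a membrane protease, fell by 1.11 in hypoxia (FDR 0.000168) and rose by 0.62 with 32-134D (FDR 0.0137), again with replicate 3 of 32-134D overlapping the vehicle libraries at 1% O2. PRSS8, which encodes prostasin, fell by 1.41 in hypoxia (FDR 0.0019). MET, the receptor for hepatocyte growth factor, rose by 0.73 with 32-134D (FDR 0.00136). HGFAC, the activator of that growth factor, fell by 0.66 (FDR 0.0227). For both, replicate 3 of 32-134D lay farthest from vehicle at 1% O2. MET measured 135.3, 120.3 and 127.9 CPM in that vehicle group and 174.5, 170.1 and 290.6 CPM with 32-134D. HGFAC measured 3.66, 3.02 and 3.11 CPM and then 2.35, 2.36 and 1.42 CPM. Fits of these genes without replicate 3 are not given. HGF itself had 0 counts in every library. ST14 (matriptase) and its inhibitor SPINT1, which are broadly expressed in epithelia, differed by at most 0.21 on the log2 scale in either comparison and were not called. Against vehicle at 20% O2, the smallest FDR among the LGI and hepsin lists was 0.0439, for MST1, a substrate of hepsin, at a log2 fold change of -0.34, under the fold threshold.

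**Figure D5:**
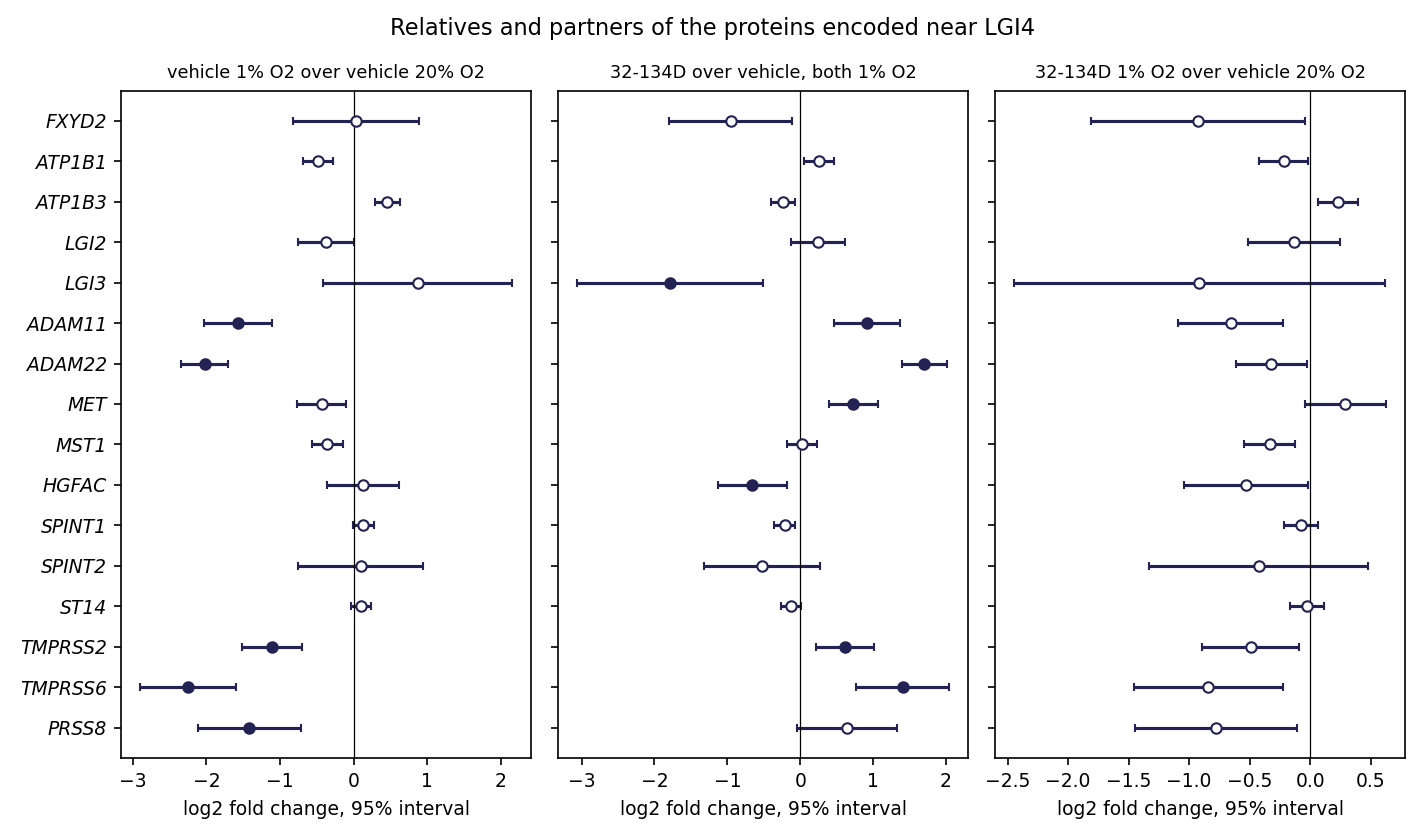
Log2 fold change with its 95% interval for 16 relatives and partners of the LGI4, FXYD and HPN proteins in 3 comparisons. Filled circles passed FDR below 0.05 and a fold change above 1.5. ADAM22, TMPRSS6, ADAM11, PRSS8 and TMPRSS2 are filled on the left of 0 in hypoxia, and in the third comparison no circle is filled.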

How the data were processed

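RNA-seq was performed on 9 libraries of Hep3B cells, 3 per group as the labels give them. The authors trimmed the reads, mapped them with STAR to an Ensembl 100 (GRCh38) reference and counted them per gene with featureCounts, and deposited raw counts. Versions, strand setting and the handling of overlapping genes are not given in the sources used here. Gene positions came from GENCODE 29 on GRCh38 and start-site windows from RefSeq on GRCh38.p14. All 9 count columns matched a sample, and 0 were left over.

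Genes with at least 10 counts in all 9 libraries together were tested (22672 of 60683). Under R 4.3.3, edgeR 4.0.16 was used for the main test (quasi-likelihood), with library sizes scaled by TMM and the 3 groups in a single fit, which shared a biological coefficient of variation of 10.5%. FDR was by the Benjamini-Hochberg method over all tested genes. The study used DESeq2, and DESeq2 1.42.0 was run as an alternative. The test was checked on simulated data. Depth sets the precision, and floors and intervals on counts cover counting error only, since molecules were not tagged. Libraries of a group differed by 1.64 to 40.5 in chi-square per degree of freedom, above sampling noise, so each was kept as a replicate.

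The members and lists were chosen with earlier results of these data known. Genes named were the 6 members, tested protein-coding genes within 150 kb of LGI4, the 3 largest called rises and falls within 500 kb in each comparison, list members with a mean of at least 10 counts in some group, and the 5 genes nearest to LGI4 in profile (log2 CPM, prior count 2). SOX10, S100B, CD3E, HGF, FXYD4, FXYD6, LGI1, ADAM23 and the transcripts that overlap members were named outside this rule, after their values were seen. Some genes that the rule names are not reported here. Alternatives were other scalings, filters, thresholds, windows, thinning to the smallest library, leave-one-out fits and a block for the replicate number. Leaving out replicate 2 of vehicle at 20% O2 and replicate 3 of 32-134D together was chosen after seeing the data.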

Additional observations from a re-analysis of the deposited data

How the results depend on the processing

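Of the recomputed member fold changes, 300 stayed the same, 2 reversed, 4 newly passed and 5 no longer passed. For the neighbors the same means the same direction and side of the thresholds. For LGI4, which was not tested, it means a shift smaller than the larger SD of log2 CPM in the 2 groups compared. Its value against vehicle at 20% O2, 0.04, ran from -0.43 to 0.50 and so changed sign within that limit. FXYD3 against vehicle at 20% O2 reversed to 1.85 with thinning and to 2.47 without replicate 3 of vehicle at 20% O2, which held all of the counts of that group (-1.58 to 2.47 over left-out libraries, -1.78 with both doubted libraries out, replicate 2 of vehicle at 20% O2 and replicate 3 of 32-134D). FXYD5 in that comparison was not called with only the groups compared (1.18, FDR 0.0786), with thinning (0.82, FDR 0.44) or with both libraries out (0.91, FDR 0.0973), and ran from 0.99 to 1.34 over left-out libraries. HPN was called with no fold threshold, at -0.43 with 32-134D and -0.53 against vehicle at 20% O2, and in the latter with upper quartile scaling (-0.61), from -0.64 to -0.40 over left-out libraries and -0.37 with both out. With at least 10 counts in every library LGI4, FXYD1, FXYD3 and FXYD5 could not be fitted.

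Window counts moved over 1.5 times in 34 cases and stayed nearer in 110. The 9 higher in hypoxia became 3 with at least 10 counts in every library, 14 with no fold threshold and 20 in 1000 kb. The 5 lower became 3 with that filter, 3 with thinning, 2 above a fold of 2, 1 in 250 kb, 13 in 1000 kb and 3 to 6 over left-out libraries (3 without replicate 3 of either vehicle group). The 4 higher with 32-134D became 1 with the filter, 2 with filterByExpr, 1 with thinning, 2 with both libraries out, 2 in 250 kb, 7 in 1000 kb and 2 to 4 over left-out libraries (2 without replicate 2 or 3 of 32-134D). The 9 lower became 3 with the filter, 16 with no fold threshold, 5 above a fold of 2, 5 in 250 kb and 20 in 1000 kb. Against vehicle at 20% O2, the 1 higher, FXYD5, became 0 with the filter, only the groups compared, thinning or both libraries out, and 0 to 1 over left-out libraries. The 0 lower (edgeR) became 2 with upper quartile scaling, 3 with no fold threshold, 1 in 1000 kb and 0 to 1 over left-out libraries. The causes were not tested.

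Libraries with the same replicate number did not deviate together (correlations -0.181 to 0.0833 for 9 same-numbered pairs, -0.177 to 0.203 for 18 others). No pairing by number was thus visible, but with 3 libraries per group this check cannot exclude one. With the replicate block the FXYD5 value against vehicle at 20% O2 was 1.21 (FDR 0.0348), no member's call changed, and the 9 window genes higher in hypoxia became 8. GRAMD1A, called higher in hypoxia, was not called with the 3 other scalings in edgeR. Few counts limit FXYD3, FXYD7 and HAMP in every comparison.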

Other observations

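Ranking genes by the correlation of log2 CPM over the 9 libraries, which ignores the size of a change, gave none of the 5 genes nearest to LGI4 by distance. It put first CERS2, a ceramide synthase of liver, with mean levels of 400.8 CPM in vehicle at 20% O2, 579.2 CPM in vehicle at 1% O2 and 393 CPM with 32-134D, and then DIPK2A at 69.6, 162 and 70.6 CPM in the same order. These libraries share depth and scaling, so the ranking is a description. With a prior count of 0.5 in place of 2, 4 of the 5 genes by distance were shared, and APLN, which encodes the peptide apelin, took the place of CA9.

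HPN-AS1, an antisense transcript that shares 349 exonic bases with HPN, had 35 counts in the 9 libraries, with 0.127 ± 0.0479 CPM in vehicle at 20% O2, 0.185 ± 0.0852 CPM in vehicle at 1% O2 and 0.153 ± 0.0765 CPM with 32-134D (SD, n = 3).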
